A study of Mus musculus with 13 samples.

Results

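The genes described here are 10 genes of metal buffering and of the oxidative stress response in mouse thymic stroma. They were matched by symbol in a bulk RNA-seq count table of 53379 gene identifiers, in which each of the 10 symbols had a single identifier. They comprise Mt1, Mt2 and Slc39a14 (metallothioneins and zinc import), Hmox1 and Nqo1 (heme and quinone detoxification), Gclc, Gclm and Slc7a11 (glutathione synthesis), and Txnrd1 and Srxn1 (thioredoxin and sulfiredoxin). All 10 passed the filter on low counts.

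The study profiled polyA RNA of CD45- cells of the thymus from 2-month-old wild type C57BL/6 mice, a fraction made up of fibroblasts, endothelium and thymic epithelial cells (TECs) among others. Of its 13 libraries, 4 came from mice at steady state and 9 from mice given a sublethal dose of total body irradiation (TBI), with 3 libraries for each of day 1, day 4 and day 7 afterwards. The labels call the steady-state mice untreated, whereas the columns of the count table name phosphate-buffered saline (PBS) controls of day 1 replicate 2, day 4 replicate 2, and day 7 replicates 1 and 2. Levels are given as CPM computed with normalized library sizes, steady-state libraries in the order just named and the others in the order of their replicate numbers. The sources used here do not say how many mice went into a library, so the p-values measure the spread between these libraries.

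Metallothioneins are small cysteine-rich proteins that bind zinc and other metals, and their genes are switched on by the zinc sensor MTF1 at metal response elements (MREs), and also by glucocorticoids and inflammatory signals. NRF2, encoded by Nfe2l2, is held at a low level by KEAP1 and is stabilized under oxidative or electrophilic stress. It then binds antioxidant response elements (AREs) at genes for glutathione synthesis, thioredoxin reduction, quinone reduction and heme breakdown, where BACH1 is a competing repressor.

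The promoters of the metallothioneins and of 2 NRF2 target genes are printed because MRE or ARE cores stand close to the start of transcription in them. Each run covers 250 bases before to 50 bases after the gene's start (RefSeq, GRCm38.p6), in the direction of the gene. Capitals mark the MRE core in the first pair of sequences and the ARE core in the second.
Mt1, chr8:94178839-94179138, + strand: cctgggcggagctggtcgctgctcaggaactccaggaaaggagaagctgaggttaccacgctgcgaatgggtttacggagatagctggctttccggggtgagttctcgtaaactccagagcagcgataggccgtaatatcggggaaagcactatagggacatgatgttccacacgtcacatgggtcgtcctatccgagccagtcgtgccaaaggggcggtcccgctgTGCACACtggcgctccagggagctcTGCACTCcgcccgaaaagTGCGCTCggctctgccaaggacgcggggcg
Mt2, chr8:94172368-94172667, + strand: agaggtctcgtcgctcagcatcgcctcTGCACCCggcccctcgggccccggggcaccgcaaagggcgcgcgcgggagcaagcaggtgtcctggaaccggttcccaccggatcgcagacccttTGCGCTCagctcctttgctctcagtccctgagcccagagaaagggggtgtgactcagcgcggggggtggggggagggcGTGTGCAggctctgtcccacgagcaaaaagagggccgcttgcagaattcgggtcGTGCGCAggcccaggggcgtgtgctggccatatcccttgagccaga
Gclm, chr3:122245307-122245606, + strand: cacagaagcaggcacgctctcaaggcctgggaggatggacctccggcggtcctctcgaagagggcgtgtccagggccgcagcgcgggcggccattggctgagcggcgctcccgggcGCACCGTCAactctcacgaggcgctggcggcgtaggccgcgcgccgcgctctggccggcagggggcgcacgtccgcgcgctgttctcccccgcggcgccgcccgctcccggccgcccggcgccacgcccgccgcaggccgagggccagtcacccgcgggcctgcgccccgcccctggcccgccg
Srxn1, chr2:152105274-152105573, + strand: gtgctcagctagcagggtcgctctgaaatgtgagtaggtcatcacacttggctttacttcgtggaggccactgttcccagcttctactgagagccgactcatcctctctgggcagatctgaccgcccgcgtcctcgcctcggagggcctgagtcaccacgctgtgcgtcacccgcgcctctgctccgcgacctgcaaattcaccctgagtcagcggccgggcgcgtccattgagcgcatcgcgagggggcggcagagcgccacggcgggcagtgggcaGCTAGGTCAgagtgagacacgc

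The MRE core was searched as TGCACNC or TGCGCNC and the ARE core as TGACNNNGC, each on both strands, so that a capital run may be the reverse complement of these letters. The Mt1 window held 3 MRE cores, all in its last part, at bases 228 to 234, 253 to 259 and 271 to 277 of the window, and no ARE core. The Mt2 window held 4 MRE cores, of which 2 read on the opposite strand, and 1 ARE core at bases 172 to 180. Among 32851 promoter windows of this length, 25.7% held at least 1 MRE core, 1.97% held at least 3 and 0.518% held at least 4.

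The ARE core occurred in 12.4% of all windows. Gclm and Srxn1 each held 1, on the opposite strand, and the one in Gclm overlapped 1 of the 3 MRE cores of that window. Srxn1 also held 1 MRE core. Txnrd1 has 3 windows, 1 of them with an ARE core, and the windows of Nqo1 and Slc7a11 held neither core. For Hmox1, Gclc and Slc39a14 no window was searched. A match is a description of the letters and not a measured binding site.

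Total counts per library ran from 15721866 to 52056896, so that members had between 112 and 29826 counts in every library. Markers of stromal cells were present in every condition, with summed levels of 8296 to 69180 CPM for 10 fibroblast markers, 1020 to 1672 CPM for 8 endothelial markers and 796 to 4514 CPM for 10 epithelial markers. Thymocyte markers, which a CD45- sort should remove, were present in every library, with summed levels of 294 to 961 CPM at steady state, 140 to 169 at day 1, 28.4 to 45.5 at day 4 and 260 to 5995 at day 7. Ptprc, which encodes CD45 itself, ranged from 24.0 to 119 CPM at steady state and from 21.6 to 607 CPM at day 7. At day 1 (12.68 to 14.99 CPM) and day 4 (4.066 to 4.536 CPM) Ptprc was below every steady-state library. On the first principal component, which carried 39.8% of the variance over 11459 genes, day 1 replicate 1 (loading 0.633) and day 4 replicates 2 and 3 (0.402 and 0.382) stood apart from the other libraries (-0.311 to -0.002). Results were therefore also computed without these 3 libraries. In bulk samples, fewer cells of a type and less RNA per cell cannot be told apart.

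At day 1 after TBI, the metallothioneins, the zinc importer Slc39a14 and Hmox1 were higher than at steady state, while the 6 other members were not called. By the edgeR quasi-likelihood test, adjusted over 19984 genes by the Benjamini-Hochberg method, 4 of 10 members were higher and none lower, against 1.68% of all tested genes that were higher and 0.671% that were lower. For all 4, no day 1 library reached down into the steady-state range, as was the case for 7.25% of all tested genes in that direction. Without the 3 libraries that stood apart, 1 member (Mt2) was called. Over the 10 members the median log2 fold change was 0.09, and over all tested genes it was -0.10.

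Mt1 was at 71.5, 143, 31.1 and 101 CPM at steady state and at 843.5, 357 and 336 CPM at day 1. Every day 1 library was above every steady-state library, and day 1 replicate 1 was well above the other day 1 libraries. Mt1 (chr8:94179082-94180327, + strand) rose by a log2 fold change of 2.56 ± 0.66 (SE, n = 3 and 4, edgeR adjusted p = 0.0103), or 5.91-fold. Without day 1 replicate 1 the log2 fold change was 2.00 with an adjusted p of 0.0581. The call was also lost in a fit of only these 2 conditions (2.49, adjusted p = 0.0644) and with the replicate number in the column names as a block (2.75, adjusted p = 0.0528).

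Mt2, the neighbour of Mt1 on the same strand (chr8:94172664-94173568), had the largest change of the 10 members at day 1. It was at 6.75, 16.8, 3.81 and 11.1 CPM at steady state and at 233, 75.1 and 69.9 CPM at day 1, a log2 fold change of 3.71 ± 0.84 (SE, edgeR adjusted p = 0.00185), or 13.1-fold. The call was kept in all 22 alternatives, those without each library and without the 3 libraries that stood apart among them. Of its 588 exonic bases, 73.5% also lie in exons of the antisense gene Gm45774, and the default counting settings that the study states neither use strand nor count reads that fall on more than 1 gene. Gm45774 itself was at a mean of 1.19 CPM at day 1 and 0.949 CPM at steady state (edgeR adjusted p = 0.800). Reads in the shared bases would thus be left out for both genes, and the level of Mt2 relative to Mt1 is uncertain for that reason.

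Slc39a14 encodes ZIP14, which carries zinc, manganese and iron that is not bound to transferrin into cells. Its libraries were at 52.8, 194, 53.6 and 77.4 CPM at steady state and at 644, 551 and 346 CPM at day 1. The steady-state library from the PBS control of day 4 replicate 2 was the highest of its group, and it was still below all day 1 libraries. The log2 fold change was 2.44 ± 0.61 (SE, edgeR adjusted p = 0.00628), or 5.44-fold, and it was 2.25 with an adjusted p of 0.0829 without the 3 libraries that stood apart.

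Hmox1 encodes heme oxygenase 1, which breaks heme down into biliverdin, iron and carbon monoxide. It was at 35.1, 39.6, 20.2 and 20.7 CPM at steady state and at 113, 64.4 and 67.1 CPM at day 1. Day 1 replicate 1 was again the highest. The log2 fold change was 1.50 ± 0.40 (SE, edgeR adjusted p = 0.0149), or 2.82-fold. Without day 1 replicate 1 it was 1.19 (adjusted p = 0.0775), and without the PBS control of day 7 replicate 2 it was 1.37 (adjusted p = 0.0580).

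**Figure D1:**
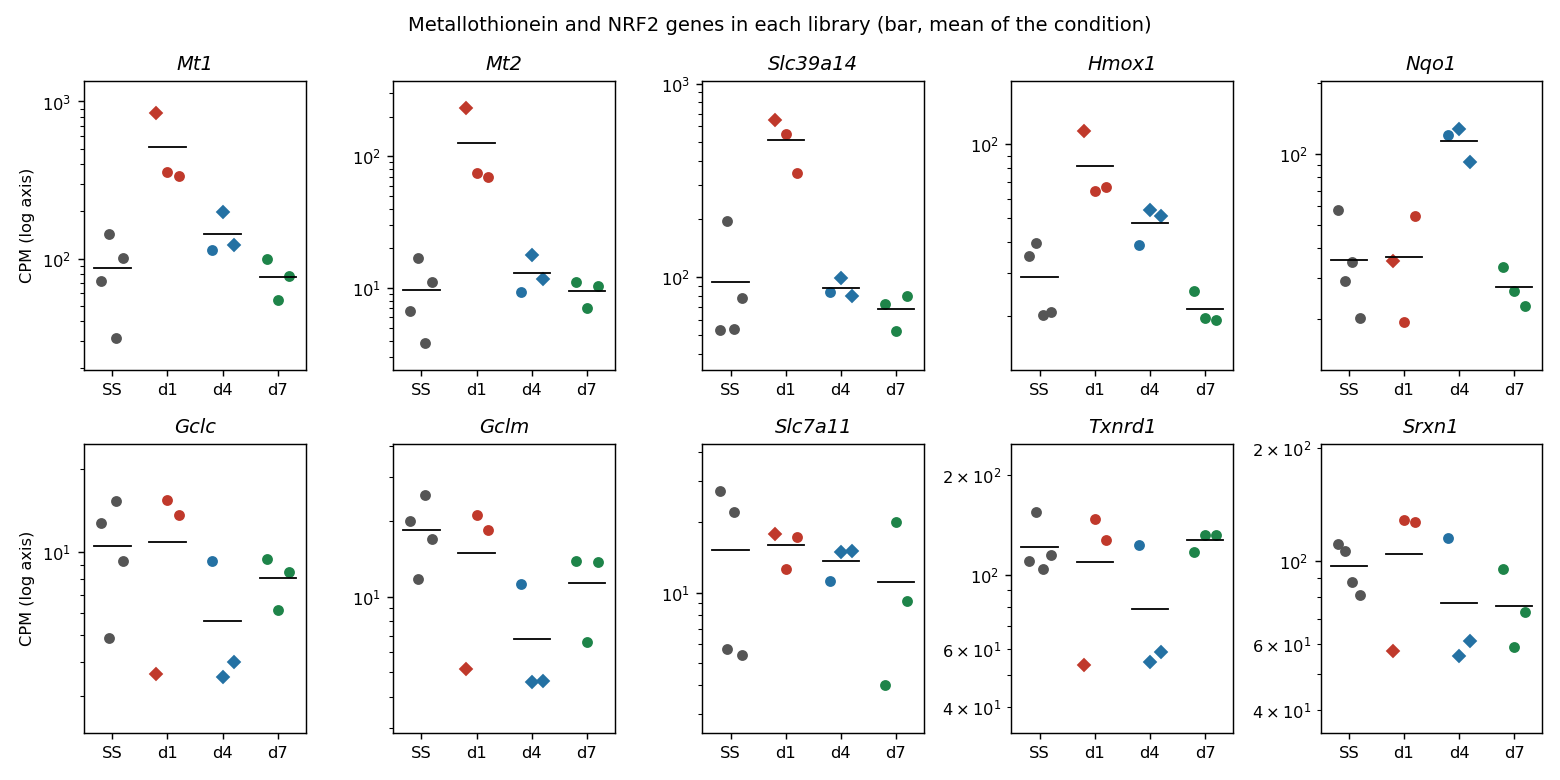
Level of each of the 10 genes in each library, in CPM on a log axis, at steady state (SS, 4 libraries) and 1, 4 or 7 days after TBI (d1, d4, d7, 3 libraries each). Bars are condition means and diamonds mark the 3 libraries that stood apart on the first component. The top row shows Mt1, Mt2, Slc39a14 and Hmox1 with every day 1 library above every steady-state library, and Nqo1 with every day 4 library above all others.

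Column names end in a tag that the sources used here do not explain, and the start of the tag divides the libraries into 3 families. Within the family with neither of the k tags (2 libraries at each condition), the log2 difference between the mean CPM of day 1 and steady state was 2.74 for Mt1, 3.66 for Mt2, 3.06 for Slc39a14 and 1.24 for Hmox1. Within the family kk (1 library at each condition) these differences were 3.05, 4.33, 3.05 and 2.42. The day 1 library of that family was replicate 1, which stood apart on the first component. The direction was thus the same in both families that held day 1 libraries.

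Markers of other cells moved with these genes to different degrees. The summed level of 10 neutrophil markers was 41.3 to 200.6 CPM at steady state and 149 to 266 CPM at day 1. Of the 9 that were tested all had a positive log2 fold change (median 0.92) and 2, Csf3r and Cxcr2, were called. Csf3r, a receptor of neutrophils for G-CSF, was at 0.0484 to 0.285 CPM at steady state and 4.41 to 5.91 CPM at day 1 (log2 fold change 5.30, edgeR adjusted p = 0.000707). The summed level of 13 macrophage markers overlapped between both conditions (50.8 to 84.8 and 53.2 to 69.9 CPM, with Vsig4 at 0 in both). Of the 12 that were tested none was called, and 2 had a positive log2 fold change (median -0.57). The summed level of 10 erythroid markers, whose cells carry the heme that heme oxygenase breaks down, was 1575 to 3616 CPM at steady state and 294 to 979 CPM at day 1. Over the 13 libraries the log2 level of Hmox1 had a Pearson correlation of -0.33 with the macrophage markers and of 0.68 with the neutrophil markers. Most of the summed neutrophil level came from Ltf, at 36.1 to 186 CPM at steady state and 126 to 218 CPM at day 1. At day 4 Ltf was at 114 to 290 CPM, while the median log2 fold change of the tested neutrophil markers against steady state was -1.26. The sum, and so its correlation with Hmox1, thus describes mainly Ltf. The part of neutrophils, macrophages and erythroid cells in the levels of the metallothioneins, Slc39a14 and Hmox1 was not tested.

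The metallothionein and Hmox1 levels were lower again by day 7, and those of Mt2 and Slc39a14 by day 4. At day 4 against day 1, 2 of 10 members were lower, against 1.07% of all tested genes. Mt2 was at 9.29, 17.8 and 11.6 CPM at day 4 and fell by 3.28 on the log2 scale (SE 0.83, edgeR adjusted p = 0.0131). Slc39a14 was at 83.2, 98.7 and 79.5 CPM and fell by 2.56 (SE 0.66, edgeR adjusted p = 0.0143). Both calls were lost without any 1 of the day 4 libraries, with adjusted p-values of 0.0736, 0.0535 and 0.0907 for Mt2 and of 0.0799, 0.0765 and 0.0948 for Slc39a14 without replicates 1, 2 and 3. Mt1 was at 114, 196 and 122 CPM at day 4, below every day 1 library, with a log2 fold change of -1.83 that did not pass the test (edgeR adjusted p = 0.114). Such a separation held for 13.7% of all tested genes in that direction.

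At day 7, 4 of 10 members were lower than at day 1, against 4.45% of all tested genes. Mt1 was at 98.7, 54.2 and 77.6 CPM (log2 fold change -2.74 ± 0.73, SE, edgeR adjusted p = 0.0101), and Mt2 was at 11.2, 7.03 and 10.3 CPM (-3.73 ± 0.89, adjusted p = 0.00448). Slc39a14 was at 72.5, 52.6 and 79.6 CPM (-2.91 ± 0.70, edgeR adjusted p = 0.00457), and Hmox1 was at 25.4, 19.6 and 19.3 CPM (-1.93 ± 0.47, adjusted p = 0.00576). No day 7 library of these genes reached the lowest day 1 library, as was the case for 14.8% of all tested genes. For Mt1 the adjusted p was 0.0538 without day 7 replicate 2.

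Against steady state, none of the 10 members was called at day 4 or at day 7. Of all tested genes, 0.29% were called at day 4 and 0.005% at day 7, so that few genes of any kind were called in this fit. At an unadjusted p under 0.05, edgeR counted 2602 genes at day 4 and 2691 at day 7, and DESeq2 called 644 and 1081 genes, of which 1 was a member, Nqo1, at day 4. Without day 7 replicate 1, edgeR called 226 genes at day 4 and 622 at day 7, and without the PBS control of day 4 replicate 2 it called 97 and 220. The log2 fold changes at day 7 lay between -0.70 for Gclm and 0.07 for Txnrd1. For Mt1 the 95% interval of the day 7 change was -1.10 to 0.75, and for Hmox1 it was -1.05 to 0.18, so that changes within these intervals were not excluded. The comparisons with steady state share the same 4 steady-state libraries.

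Hmox1 was intermediate at day 4, at 39.0, 54.1 and 51.1 CPM. These libraries lay below all day 1 and above all day 7 libraries, and 1 of them lay within the range of steady state. Among all tested genes, 13.7% were lower without overlap at day 4 than at day 1, and 14% at day 7 than at day 4. The change from day 4 to day 7 was -1.17 ± 0.39 on the log2 scale (SE, edgeR adjusted p = 0.0604). This value was near the threshold, and 8 of 22 alternatives called it.

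**Figure D2:**
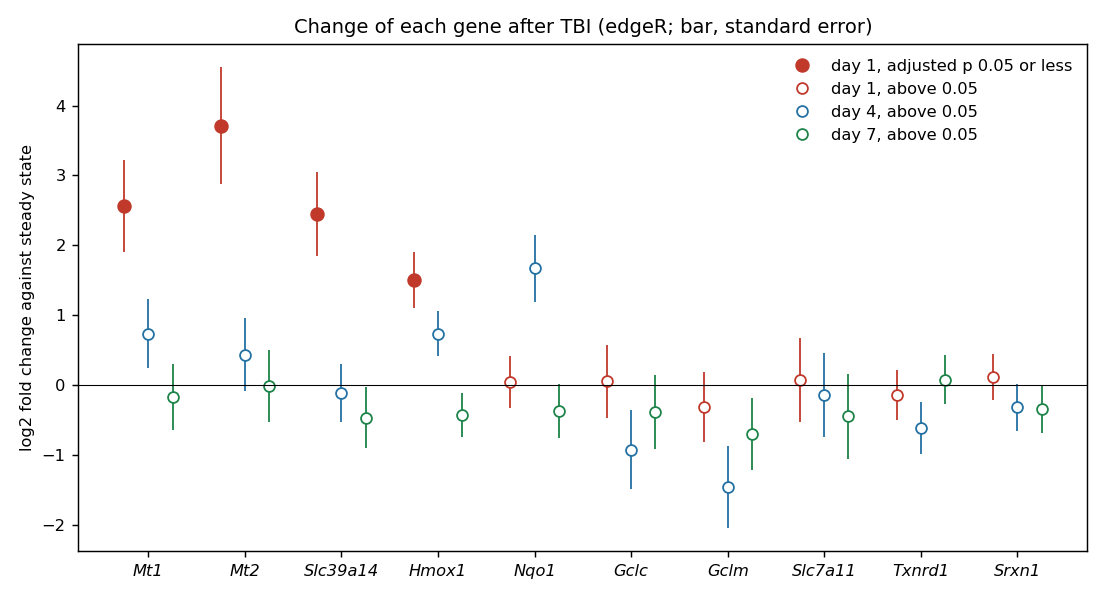
Log2 fold change of each of the 10 genes against steady state 1, 4 or 7 days after TBI. Bars are standard errors derived from the edgeR log2 fold change and its p-value. Filled points have an adjusted p of 0.05 or less, which holds for Mt1, Mt2, Slc39a14 and Hmox1 at day 1 (2.56, 3.71, 2.44 and 1.50) and for no gene at days 4 and 7.

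Nqo1, which reduces quinones by a 2-electron transfer, had a different time course from the other members, with its highest levels at day 4. It was at 58.0, 29.1, 34.8 and 20.4 CPM at steady state, at 35.4, 19.6 and 54.9 CPM at day 1, at 121, 127 and 92.4 CPM at day 4, and at 33.2, 26.4 and 22.7 CPM at day 7. All day 4 libraries were above all others, and the other conditions overlapped. Among all tested genes, 12.6% were higher without overlap at day 4 than at day 1, and 14% were lower at day 7 than at day 4. The fall from day 4 to day 7 passed the test, at -2.05 ± 0.56 on the log2 scale (SE, edgeR adjusted p = 0.0193), or 4.13-fold, as the only call among the 10 members in that comparison, where 1.13% of all tested genes were lower.

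Against steady state, the day 4 log2 fold change of Nqo1 was 1.67 ± 0.48 (SE, edgeR adjusted p = 0.0898), which missed the threshold. Its libraries did not overlap with those of steady state, as was the case for 6.44% of all tested genes in the upward direction. Without the PBS control of day 1 replicate 2, the highest steady-state library, the adjusted p was 0.0336. The day 7 to day 4 call was lost without day 4 replicate 2 or 3 (edgeR adjusted p = 0.104 and 0.0734) and without day 7 replicate 2 or 3 (0.0777 and 0.0660).

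The summed level of 10 epithelial markers had its highest values at day 4, with a range that overlapped that of steady state. It was 2849 to 4514 CPM at day 4, 1005 to 3517 CPM at steady state, 1413 to 2762 CPM at day 1 and 796 to 1480 CPM at day 7. At day 4 against steady state 8 of the 10 markers had a positive log2 fold change, with a median of 0.82, and none passed the test. Epcam, a general epithelial marker, was at 99.8, 24.4 and 25.5 CPM at day 4 (mean 49.9) and at 33.4 to 155 CPM at steady state (mean 83.6). Its lower day 4 values were those of replicates 2 and 3, which stood apart on the first component. Over the 13 libraries, the log2 level of Nqo1 and that of the marker sum had a Pearson correlation of 0.90, a description over libraries that share conditions. In day 1 replicate 1, at a sum of 1802 CPM, Psmb11, Prss16, Epcam and Foxn1 were at 1.78, 6.87, 14.0 and 21.7 CPM. In day 4 replicate 2, at a sum of 3851 CPM, they were at 267, 386, 24.4 and 91.8 CPM. In these libraries the sum thus describes mainly other genes of the list, whose part in the correlation was not tested. Among 11459 genes, the 3 whose levels were most like those of Nqo1 were Plekhb1 (0.983), Il7 (0.979), which encodes a cytokine that thymic epithelial cells supply to developing T cells, and Slc46a2 (0.976), a transporter gene named for its expression in thymic stroma. The part of the number of epithelial cells in the level of Nqo1 was not tested.

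**Figure D3:**
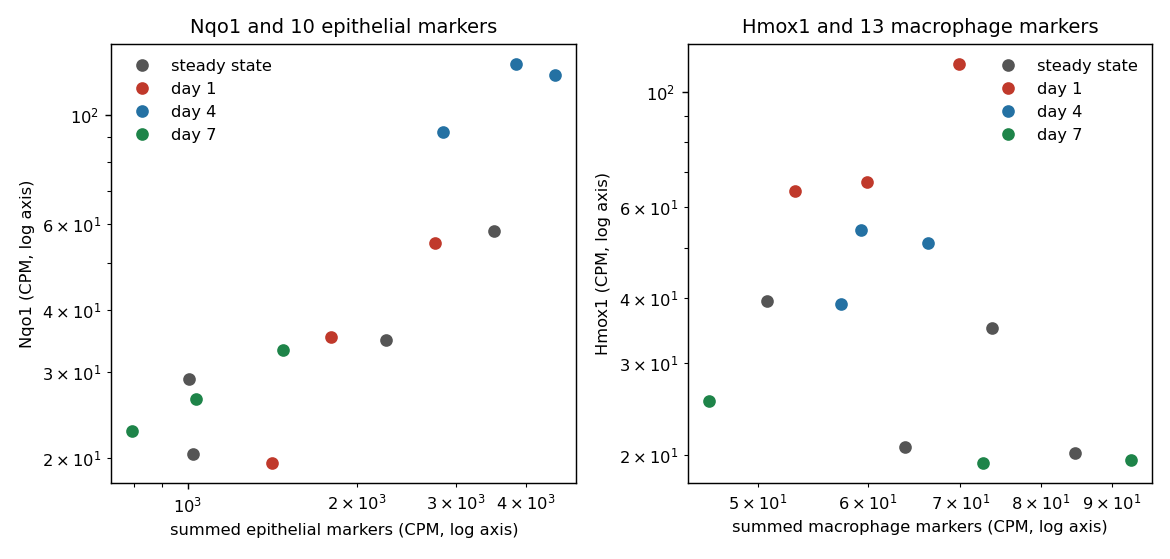
Left, Nqo1 against the summed level of 10 epithelial markers, and right, Hmox1 against the summed level of 13 macrophage markers, both in CPM on log axes, with 1 point per library. The day 4 libraries lie at the upper right for Nqo1, where the correlation of the log2 levels over 13 libraries was 0.90, while for Hmox1 and the macrophage markers it was -0.33.

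The genes of glutathione synthesis did not pass the test in any comparison. The share of all tested genes called ran from 0.005% at day 7 against steady state to 8.13% at day 7 against day 1. Gclc and Gclm encode the catalytic and the modifier subunit of glutamate-cysteine ligase, the rate-limiting enzyme of glutathione synthesis. Gclm was at 20.0, 11.8, 25.5 and 17.0 CPM at steady state, at 5.15, 21.2 and 18.5 CPM at day 1, at 11.2, 4.58 and 4.61 CPM at day 4, and at 13.9, 6.60 and 13.7 CPM at day 7. The day 4 libraries lay below all steady-state libraries, as did those of 8.22% of all tested genes, with a log2 fold change of -1.46 ± 0.59 (SE, edgeR adjusted p = 0.271). Gclc ranged from 4.88 to 15.3 CPM at steady state, from 3.62 to 15.5 CPM at day 1, from 3.53 to 9.29 CPM at day 4 and from 6.15 to 9.48 CPM at day 7, so that all conditions overlapped.

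Slc7a11 encodes the cystine-glutamate exchanger that supplies cysteine for glutathione. It split the steady-state libraries, with 27.2 and 22.3 CPM in the PBS controls of day 1 replicate 2 and day 7 replicate 1 and 5.75 and 5.42 CPM in those of day 4 replicate 2 and day 7 replicate 2. It ranged from 12.6 to 17.8 CPM at day 1, from 11.2 to 15.1 CPM at day 4 and from 4.00 to 20.1 CPM at day 7. Its day 1 log2 fold change was 0.07 (95% interval -1.10 to 1.24), so that a change of 2-fold in either direction was not excluded.

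Txnrd1 encodes the cytosolic thioredoxin reductase, and Srxn1 encodes sulfiredoxin, which restores over-oxidized peroxiredoxins. Txnrd1 was at 104 to 155 CPM at steady state, at 53.6, 147 and 127 CPM at day 1, at 123, 54.8 and 58.7 CPM at day 4 and at 117 to 132 CPM at day 7. Srxn1 was at 81.0 to 111 CPM at steady state, at 57.5, 128 and 127 CPM at day 1, at 115, 55.6 and 61.3 CPM at day 4 and at 58.8 to 95.5 CPM at day 7. Their day 1 log2 fold changes were -0.14 (95% interval -0.84 to 0.55) and 0.11 (-0.53 to 0.76).

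In Gclc, Gclm, Txnrd1 and Srxn1 alike, the lowest day 1 library was replicate 1 and the lower day 4 libraries were replicates 2 and 3, the same 3 libraries that stood apart on the first component over all genes. For each library, the deviation of each gene from its mean log2 level over the 13 libraries was correlated with the GC content of its transcript. This correlation was -0.176, -0.068 and -0.048 in these 3, against 0.215, 0.252 and 0.178 in day 1 replicates 2 and 3 and day 4 replicate 1. In the steady-state and day 7 libraries it ran from -0.105 to 0.06. The tags of the 3 libraries that stood apart also start with a k, whereas those of the other day 1 and day 4 libraries do not. All 3 day 7 libraries and 2 of the 4 steady-state libraries have such tags too and did not stand apart. The part of any of these in the low values was not tested.

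Compared per kilobase of exon, Mt1 had the highest mean level of the 10 genes at steady state (69.6 CPM per kb), followed by Srxn1 (34.3) and Nqo1 (22.9), with Slc7a11 the lowest (1.09). At day 1 the mean levels of Mt1 and Mt2 were 411 and 214 CPM per kb, those of Slc39a14 and Hmox1 were 48.7 and 46.6, and that of Srxn1 was 37.0. Mt2 at steady state, at 16.4 CPM per kb, is subject to the antisense overlap given above.

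Over the 13 libraries the members fell into correlated groups, described here without a test since the libraries share conditions. Mt1 and Mt2 had a Pearson correlation of 0.97, Mt2 and Slc39a14 of 0.96, and Mt1 and Hmox1 of 0.91. Gclc and Gclm had 0.94, Gclm and Srxn1 0.80, and Gclm and Txnrd1 0.72. The rank (Spearman) correlation was 0.929 for Gclc and Gclm and 0.709 for Gclm and Srxn1, but only 0.33 for Gclm and Txnrd1. Txnrd1 was thus tied to Gclm only weakly by ranks. Gclc, Gclm, Srxn1 and Txnrd1 were low in the libraries that stood apart, and the part of those libraries in these correlations was not tested. The genes most like Mt2 were Ly6a (0.99), Ifi211 (0.981) and Ifitm3 (0.977), which include known interferon-inducible genes such as Ly6a and Ifitm3. Those most like Mt1 were Rab5c (0.977), Ly6c1 (0.969) and Ly6a (0.968).

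For Slc39a14 the most similar genes were Tfpi2 (0.971), Eef1akmt4 (0.965) and Tnfrsf23 (0.964). For Hmox1 they were Ch25h (0.969) and Cyp7b1 (0.968), which encode a cholesterol 25-hydroxylase and an oxysterol 7-alpha-hydroxylase, and Cyp4f16 (0.963). Gclc was most like Cab39 (0.962), Mknk2 (0.962) and Notch4 (0.960), and Gclm was most like Kcnk6 (0.983), Ssx2ip (0.976) and Map3k3 (0.975). Txnrd1 was most like Plaa (0.984), Strap (0.983) and Naa50 (0.981), Srxn1 most like Itpkc (0.973), Smad1 (0.968) and Cnnm2 (0.956), and Slc7a11 most like Ctss (0.934), Strip2 (0.933) and Gprin3 (0.926).

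The RNA levels of the regulators of both pathways gave no call. None of 10 listed NRF2 regulators passed the test against steady state at any day. Few genes of any kind did, with 2.35%, 0.29% and 0.005% of all tested genes called at days 1, 4 and 7. Nfe2l2 was at a mean of 228 ± 58.4 CPM at steady state (SD, n = 4) and 245 ± 54.2 CPM at day 1 (SD, n = 3), a log2 fold change of 0.10 with a 95% interval of -0.36 to 0.56. Keap1 was at 94.1 ± 11.0 and 93.9 ± 51.2 CPM, and Bach1 at 20.2 ± 1.90 and 20.4 ± 4.70 CPM. NRF2 is controlled mainly through protein stability, which these data do not measure.

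Mtf1 was at 22.6 ± 1.35 CPM at steady state and 19.7 ± 2.15 CPM at day 1 (log2 fold change -0.19, 95% interval -0.66 to 0.27). Slc30a1, the zinc exporter that is a textbook MTF1 target, had 0 to 4 counts in every library and was not tested. Of 26 listed genes of zinc transport and metal response 22 were tested. None of them was called against steady state, where 2.35%, 0.29% and 0.005% of all tested genes were called at days 1, 4 and 7. The median log2 fold change of the 22 at day 1 was 0.27, against -0.10 over all tested genes.

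Other targets of NRF2 gave a mixed picture at day 1, when 3 of 32 were higher and none was lower, against 1.68% and 0.671% of all tested genes. Prdx6, a peroxiredoxin that also acts on oxidized phospholipids, was at 131.5 to 255 CPM at steady state and 322 to 586 CPM at day 1 (log2 fold change 1.23 ± 0.35, SE, edgeR adjusted p = 0.0281). The others were both enzymes that make NADPH in the pentose phosphate pathway. Pgd was at 65.1 to 137.5 and 156 to 268 CPM (1.11 ± 0.34, edgeR adjusted p = 0.0419), and G6pdx was at 78.0 to 109 and 149 to 271 CPM (1.02 ± 0.29, adjusted p = 0.0266). The median of the 32 was 0.44 at day 1, 0.24 at day 4 and 0.13 at day 7. None of the 32 was called at days 4 or 7, when 0.29% and 0.005% of all tested genes were. Without the 3 libraries that stood apart, the day 1 values were 0.91, 0.86 and 0.71 for Prdx6, Pgd and G6pdx and none of the 32 was called (adjusted p = 0.278, 0.342 and 0.252).

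Among 22 antioxidant enzymes outside the NRF2 lists, 1 rose and 1 fell at day 1, against 1.68% and 0.671% of all tested genes. Sod2, the mitochondrial manganese superoxide dismutase, was at 59.6 to 79.8 CPM at steady state and 196 to 213 CPM at day 1 (log2 fold change 1.62 ± 0.31, SE, edgeR adjusted p = 0.000139). Cat, the catalase of peroxisomes, was at 228 to 257 CPM and 115 to 154 CPM (-0.89 ± 0.24, edgeR adjusted p = 0.0151). Both had narrow ranges that did not meet, as was the case for 7.25% of all tested genes upward and 8.56% downward. Without the 3 libraries that stood apart, the value was 1.61 for Sod2 (adjusted p = 0.00269) and -0.999 for Cat (adjusted p = 0.0608).

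In a list of 15 genes of iron handling, 2 were higher and 1 was lower at day 1, against 1.68% and 0.671% of all tested genes. Lcn2, which binds iron-loaded siderophores and is also a neutrophil granule protein, was at 8.04 to 37.7 CPM at steady state and 736 to 2063 CPM at day 1 (log2 fold change 6.12 ± 1.23, SE, edgeR adjusted p = 0.000275). Slc11a2, an importer of ferrous iron, was at 26.8 to 39.4 and 50.2 to 90.2 CPM (1.06 ± 0.31, edgeR adjusted p = 0.0351). Heph, a ferroxidase that serves iron export, was at 29.4 to 55.6 and 17.0 to 21.8 CPM (-1.16 ± 0.34, edgeR adjusted p = 0.0376). Without the 3 libraries that stood apart, Lcn2 was called (5.54, adjusted p = 0.00335), but Slc11a2 (0.78, adjusted p = 0.263) and Heph (-1.14, adjusted p = 0.275) were not. The neutrophil marker values given above stand beside the Lcn2 result, and their part in it was not tested.

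ATF4 is the transcription factor of the integrated stress response and also acts on Slc7a11. Of 15 genes in its list, Sesn2 was higher at day 1 (23.9 to 42.4 against 51.8 to 100.1 CPM, log2 fold change 1.31 ± 0.35, SE, edgeR adjusted p = 0.0151), and Psat1 was higher at day 4 (45.1 to 76.5 against 149.5 to 207 CPM, 1.54 ± 0.38, adjusted p = 0.0276). Of all tested genes, 1.68% were higher at day 1 and 0.05% were higher at day 4. The median log2 fold change of the 15 genes was 0.07 at day 1 and 0.08 at day 4. Psat1 encodes an enzyme of serine synthesis. Without the 3 libraries that stood apart, Sesn2 kept its call (1.57, adjusted p = 0.0106) and Psat1 did not (1.66, adjusted p = 0.485). The other genes of the list were not called against steady state at any day.

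**Figure D4:**
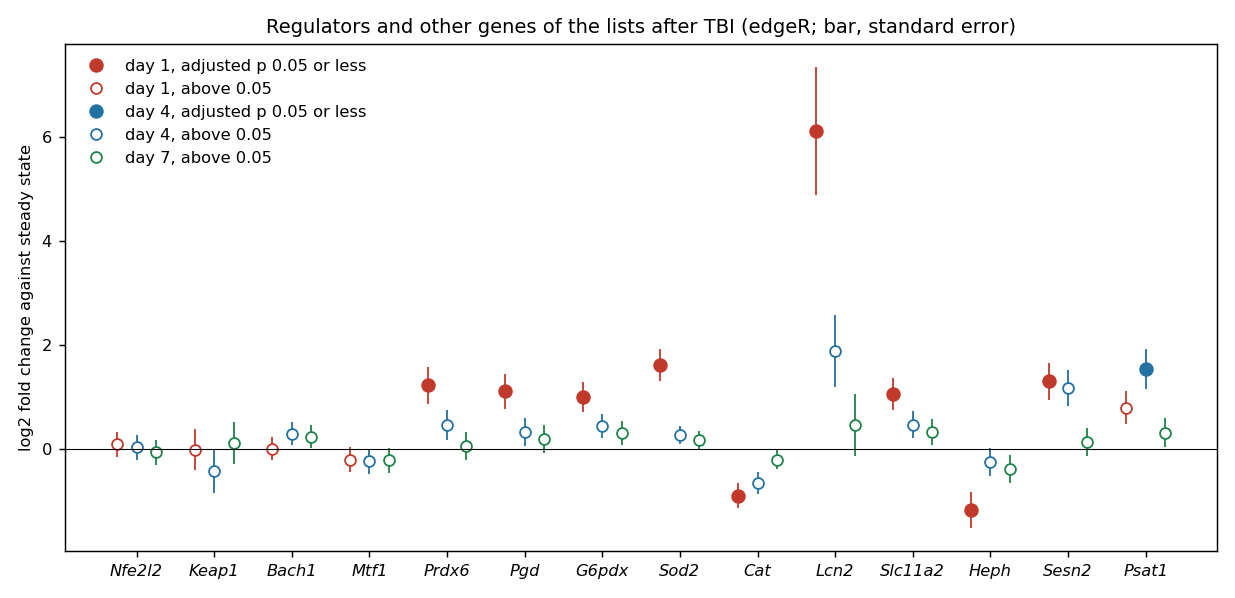
Log2 fold change against steady state of 4 regulators (Nfe2l2, Keap1, Bach1 and Mtf1) and of the 10 list genes called in a comparison with steady state. Values are shown for day 1, day 4 and day 7 after TBI. Bars are standard errors derived from the edgeR log2 fold change and its p-value. Filled points have an adjusted p of 0.05 or less. Lcn2 at 6.12 and Sod2 at 1.62 rose at day 1, and the regulators lie between -0.42 and 0.30.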

How the data were processed

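Bulk RNA-seq libraries of CD45- thymic cells were compared at steady state (4 libraries) and on day 1, day 4 and day 7 after TBI (3 libraries each). The deposited counts are whole numbers of reads per gene without normalization. The authors trimmed reads (Trimmomatic 0.38), aligned them to GRCm38.p5 (STAR 2.7.0e) and counted them (featureCounts 1.6.3, default settings per the methods), per the submitters' processing notes. All value columns were mapped to conditions.

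Counts were analysed with edgeR 4.0.16 in R 4.3.3, in 1 fit of all 13 libraries with a term for condition, after filterByExpr() by condition (19984 genes) and TMM normalization. The quasi-likelihood F-test with Benjamini-Hochberg adjustment over all tested genes was used, at a threshold of 0.05. Standard errors were derived from the log2 fold change and its p-value. Correlations used log2(CPM + 0.5) over genes with a mean of at least 5 CPM. Replicates of 1 condition differed in their counts by more than sampling noise in every pair. The fits were also run on simulated counts that had the same dispersion for every gene and no libraries that stood apart. That run cannot show how the fits behave with libraries that stand apart, as here.

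The members and lists were chosen with earlier results of these data known. By rule the text names the 10 members, Nfe2l2, Keap1, Bach1, Mtf1 and Slc30a1, up to 6 genes of each other list that passed the test against steady state, the 3 genes most correlated with each member, and markers where their list is described. Csf3r, Cxcr2, Ltf, Epcam and Ptprc were picked from the marker lists after their values were seen, and Gm45774 for its overlap with Mt2. Alternatives were DESeq2 1.42.0, RLE or upper-quartile normalization, no filter, at least 10 counts in every library, a fit of only the 2 conditions compared, a block for the replicate number, the tag family as a covariate, and each library left out. Leaving out the 3 libraries that stood apart was chosen after seeing the data, and it leaves 1 library at day 4, assumed to vary like the others. Tables and plots were made with Python 3.11.15 (matplotlib 3.10.9, pandas 2.3.3, numpy 2.4.6).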

Additional observations from a re-analysis of the deposited data

How the results depend on the processing

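Of 1320 values of members under an alternative, 1221 kept their direction and side of the threshold, 30 lost and 17 gained a call, and 52 turned direction, none of them called in the first place. Where no cause is given, it was not tested. The numbers of all genes called were 469, 58 and 1 at days 1, 4 and 7 against steady state, 285 and 1625 at days 4 and 7 against day 1, and 779 at day 7 against day 4. With DESeq2 these were 1381, 644, 1081, 949, 2940 and 1919. Without a filter, day 4 and day 7 against steady state gave 250 and 627, and day 7 against day 4 gave 1265. With at least 10 counts in every library, day 4 and day 7 against steady state gave 20 and 0, day 7 against day 1 gave 880 and against day 4 gave 355. With the tag family as a covariate, days 1, 4 and 7 against steady state gave 1066, 33 and 0, and day 4 against day 1 gave 163. With only the conditions compared, they gave 228, 146 and 0, and day 7 against day 4 gave 394. Without the 3 libraries that stood apart, the 6 comparisons gave 182, 10, 2, 7, 176 and 8. With each library left out in turn, they ranged from 252 to 797, 19 to 226, 0 to 622, 87 to 362, 472 to 2043 and 15 to 1507.

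Among days 1, 4 and 7, the correlations of same-numbered deviations from the condition means ran from -0.843 to 0.268. Libraries with different numbers were not compared in this way, so these values cannot decide whether the replicate numbers pair the libraries. With the replicate block, days 4 and 7 against day 1 gave 56 and 640 calls and day 7 against day 4 gave 0. With the replicate block by column name, days 1, 4 and 7 against steady state gave 209, 27 and 0. The members called with the block were 1 at day 4 against day 1 and 0 at day 7 against day 4, and 2 at day 1 against steady state with the block by column name.

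The members called at day 1 against steady state were 4, and 1 with only the conditions compared or without the 3 libraries, and 2 to 4 with a library left out (2 without day 1 replicate 1). At day 4 against steady state 0 members were called, and 1 with DESeq2, without a filter or without the PBS control of day 1 replicate 2 (0 to 1 over libraries left out). At day 4 against day 1 there were 2, and 4 with DESeq2 or without a filter, 1 with only the conditions compared, 0 without the 3 libraries, and 0 to 3 with a library left out (0 without any 1 day 4 library). At day 7 against day 1 there were 4, and 2 without the 3 libraries. At day 7 against day 4 there was 1, and 2 with DESeq2, upper-quartile normalization, no filter or the tag covariate, 0 without the 3 libraries, and 0 to 2 with a library left out.

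Log2 fold changes that turned direction were, at day 1 against steady state, Gclc -0.33 and Srxn1 -0.0641 with the tag covariate, Nqo1 -0.0822 with the block by column name, and Gclm 0.12 and Txnrd1 0.20 without the 3 libraries. At day 4 against steady state they were Slc39a14 0.0831 and Slc7a11 0.0198 with upper-quartile normalization, Slc7a11 0.15 with the tag covariate, Slc39a14 0.0176 with the block by column name, and Mt2 -0.0518, Txnrd1 0.0246 and Srxn1 0.26 without the 3 libraries. At day 7 against steady state they were Txnrd1 -0.0096 with upper-quartile normalization, Gclc 0.43 and Slc7a11 0.0421 with the tag covariate, and Mt1 0.0487 and Mt2 0.17 with the block by column name. At day 7 against day 1 they were Gclc 0.76 and Gclm 0.66 with the tag covariate and Txnrd1 -0.13 without the 3 libraries. At day 7 against day 4 they were Srxn1 0.29 with the tag covariate, and Mt2 0.0263 and Gclc -0.21 without the 3 libraries.

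With a library left out, changes that turned direction ranged at day 1 against steady state from -0.37 to 0.43 for Nqo1, -0.28 to 0.47 for Gclc, -0.21 to 0.56 for Slc7a11, -0.65 to 0.10 for Gclm, -0.42 to 0.19 for Txnrd1 and -0.0644 to 0.41 for Srxn1. At day 4 they ranged from -0.42 to 0.40 for Slc7a11 and -0.22 to 0.51 for Slc39a14, and at day 7 from -0.44 to 0.18 for Mt1, -0.28 to 0.40 for Mt2 and -0.67 to 0.16 for Slc39a14. At day 7 against day 1 Txnrd1 ranged from -0.11 to 0.49, and at day 7 against day 4 Srxn1 from -0.23 to 0.28 and Slc7a11 from -1.14 to 0.094.

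Upper-quartile normalization moved the median log2 fold change of all genes from -0.13 to 0.05 at day 4 against steady state, from -0.10 to 0.01 at day 4 against day 1, from 0.05 to -0.09 at day 7 against day 1 and from 0.11 to -0.15 at day 7 against day 4. The share of calls that were higher moved from 17.2% to 31.1% at day 4 against steady state and from 71% to 53.8% at day 7 against day 4 with it. With DESeq2 this share was 61.1%, 41.9% and 35.3% at days 1, 4 and 7 against steady state (71.4%, 17.2% and 100% with edgeR), 40% at day 4 against day 1 (24.9%) and 53.9% at day 7 against day 4. With 3 or 4 libraries a condition, members with wide ranges, such as Slc7a11, had wide intervals, and changes within these were not excluded.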
